A study of Mus musculus with 27 samples.

Results

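A set of 10 genes of hepatic iron regulation was followed in the livers of HGFAC-KO mice and their littermate controls: *Hamp*, *Hamp2*, *Bmp6*, *Id1*, *Tmprss6*, *Tfrc*, *Trf*, *Fth1*, *Ftl1* and *Slc40a1*. They were taken by symbol, and all 10 were found among the 23191 gene symbols of the count table and passed the filter on low counts in every comparison. Liver RNA-Seq was performed on 27 male C57BL/6J mice in 4 groups: 7 controls on chow, 6 HGFAC-KO mice on chow, 7 controls on HF/HS (a diet rich in fat and sucrose) and 7 HGFAC-KO mice on HF/HS. The mice were 8 weeks old at the start and the livers were taken after 4 weeks on the diet. HGFAC, the hepatocyte growth factor activator, is a circulating protease made by the liver, and the knockout deletes exon 2 and a stretch of exon 1 of *Hgfac* in every tissue, so transcript from the other exons can still be counted. Total counts per library ran from 36056177 to 57298657. The targeted gene *Hgfac* was at 201 ± 12.8 CPM (read counts scaled to library size, SD, n = 7) in controls on chow and 75.2 ± 8.27 CPM (n = 6) in KO mice on chow, and at 271 ± 15.5 CPM and 91.8 ± 7.94 CPM (n = 7 each) on HF/HS diet, so every KO mouse lay below every control on its diet. No hepatocyte marker of 8 was at 0, and their summed level had group medians between 85983.5 and 107305 CPM.

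The liver stores iron and sets how much of it enters the blood. Hepatocytes secrete hepcidin, the product of *Hamp*, which blocks and degrades ferroportin (*Slc40a1*), the only known exporter of cellular iron. Endothelial cells of the sinusoids release BMP6 when iron is high, and BMP receptors on hepatocytes then act through SMAD proteins to induce *Hamp* and, in parallel, *Id1*. The protease matriptase-2 (*Tmprss6*) dampens that pathway. Iron travels bound to transferrin (*Trf*), enters cells through transferrin receptor 1 (*Tfrc*) and is stored in ferritin, a shell of heavy (*Fth1*) and light (*Ftl1*) chains. Inside cells, iron regulatory proteins bind hairpins called iron-responsive elements. They protect the *Tfrc* mRNA when iron is low, and they block translation of the ferritin and ferroportin mRNAs.

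HF/HS diet lowered 3 of the 10 genes, and these were the same 3 in both genotypes: *Tfrc*, *Fth1* and *Ftl1*. *Tfrc* fell to 50.95% of its chow level in controls and to 57.5% in KO mice, and both ferritin chains fell to between 64.3% and 69.6%. The other 7 genes did not pass the threshold between the diets. No iron gene passed it between KO mice and controls on either diet, and none differed in its KO effect between the diets. Hepcidin mRNA itself varied widely among mice of a group.

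**Figure D1:**
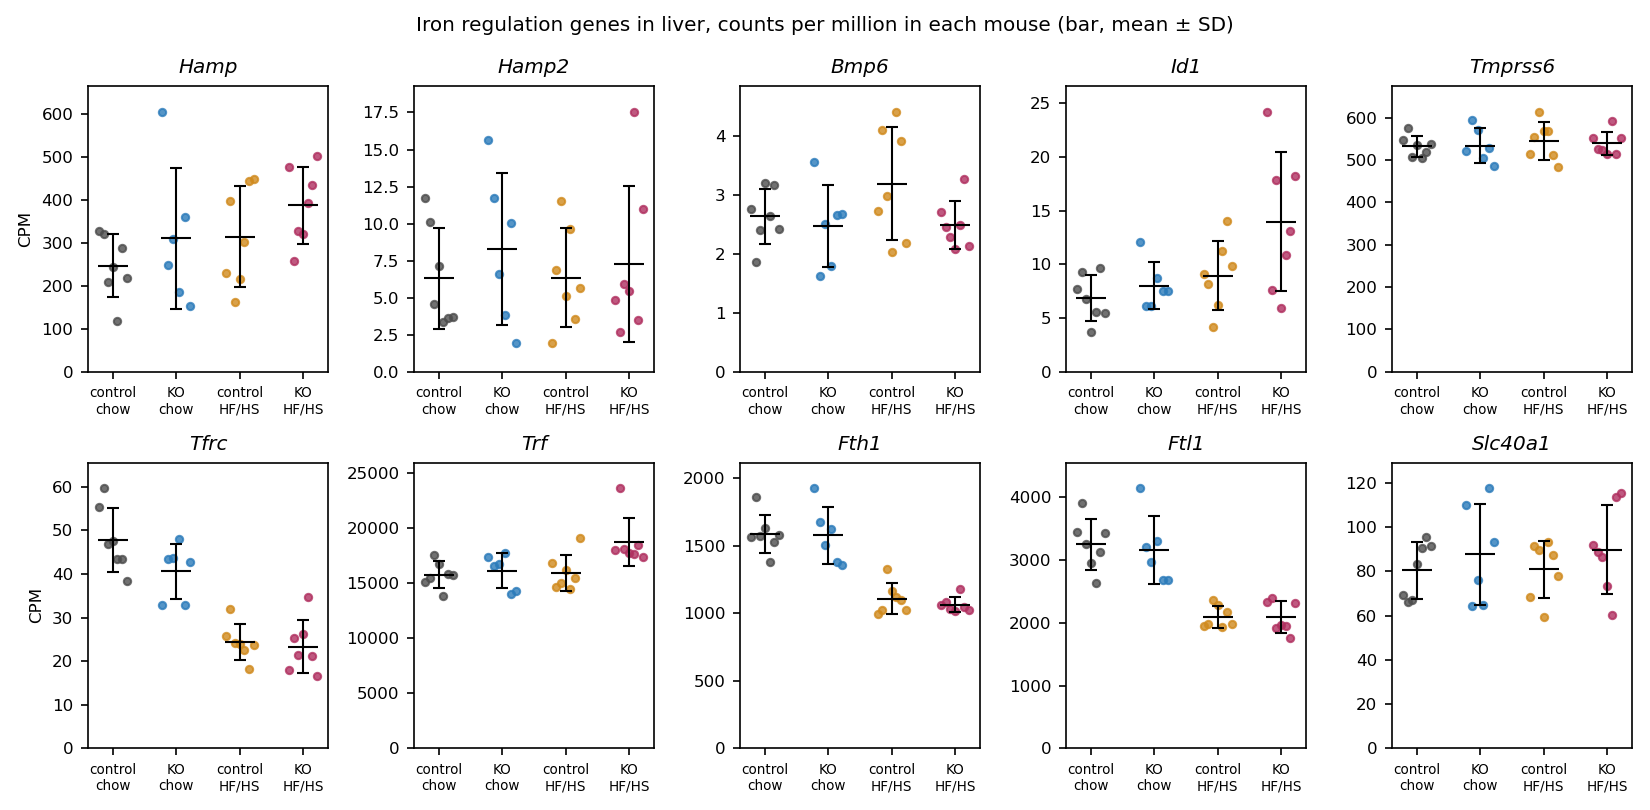
Normalized level (CPM, linear axis from 0) of the 10 iron genes in each of the 27 mice, by group, with the mean and SD of each group as bars. *Tfrc*, *Fth1* and *Ftl1* sit lower in both HF/HS groups, whereas the points of *Hamp*, *Hamp2* and *Id1* spread widely within each group.

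The mRNAs of these 3 genes, together with *Slc40a1*, carry iron-responsive elements, which are shown here because iron regulatory proteins are known to act through them on these members. The elements were searched on the transcript strand as a C, then 5 bases, the loop CAGTGN and 5 bases able to pair with the first 5 (G-T pairs allowed), in the GENCODE vM21 transcripts of GRCm38, the build to which the reads were aligned. The loop CAGTGN is in capitals, and each sequence includes 5 flanking bases on either side of the match.

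Tfrc site 1: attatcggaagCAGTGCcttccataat

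Tfrc site 2: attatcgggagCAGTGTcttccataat

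Tfrc site 3: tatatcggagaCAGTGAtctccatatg

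Tfrc site 4: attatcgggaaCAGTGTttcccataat

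Fth1: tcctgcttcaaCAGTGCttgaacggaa

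Ftl1: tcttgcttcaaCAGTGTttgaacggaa

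Slc40a1: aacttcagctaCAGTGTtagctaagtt

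The 4 *Tfrc* sites lie in its 3′ UTR on the plus strand of chromosome 16, at chr16:32631220-32631246, chr16:32631599-32631625, chr16:32631664-32631690 and chr16:32631711-32631737. The single sites of *Fth1* (chr19:9982733-9982759, plus strand), *Ftl1* (chr7:45459780-45459806, minus strand) and *Slc40a1* (chr1:45925466-45925492, minus strand) lie in the 5′ UTR. The first base of the match, after the flanking bases that these intervals include, is base 93, 84 and 96 of the transcript. Of 22527 genes with a coding transcript, 0.138% had a match in a 5′ UTR and 0.639% in a 3′ UTR. No match was found in the other 6 members. A match describes the letters of the transcript and says nothing of whether it was bound in these livers.

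**Figure D2:**
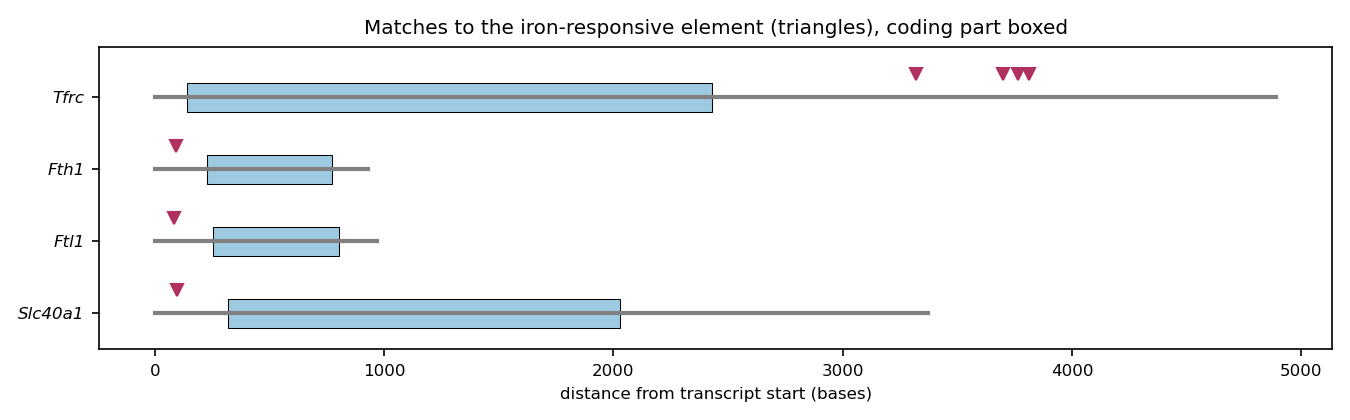
Position of the matches to the iron-responsive element (triangles) along 1 transcript of each gene, in bases from the transcript start, with the coding part boxed. The 4 matches of *Tfrc* follow the coding part, and the single matches of *Fth1*, *Ftl1* and *Slc40a1* precede it.

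The first question was how HF/HS diet changed the iron genes of control livers. *Tfrc*, which brings transferrin-bound iron into the cell, ranged from 38.5 to 59.6 CPM with a median of 46.9 on chow. After HF/HS diet it ranged from 18.1 to 32.1 CPM with a median of 24.0. All 7 mice on HF/HS diet were below the lowest mouse on chow. The log2 fold change was -0.97 (SE 0.114, adjusted p = 5.63e-05 by edgeR's quasi-likelihood test), and the exact two-sided permutation test gave p = 0.000583, the smallest it can give with 7 mice against 7.

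The ferritin heavy chain *Fth1*, the subunit with ferroxidase activity, ranged from 1382 to 1860 CPM (median 1576) in controls on chow. The range on HF/HS diet was 994 to 1328 CPM (median 1096). Again the groups did not overlap, with a log2 fold change of -0.52 (SE 0.0727, adjusted p = 0.000263). The light chain *Ftl1*, which helps to form the iron core, ranged from 2637 to 3905 CPM (median 3262) on chow and from 1926 to 2365 CPM (median 1988) on HF/HS diet. Here too the groups did not overlap, and the gene fell by 0.64 on the log2 scale (SE 0.0799, adjusted p = 9.43e-05). For both chains the exact permutation p was 0.000583.

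These 3 of 10 genes compare with 5.6% of the 13525 genes tested that were lower on HF/HS diet in controls, while 4.93% were higher and no iron gene was. Likewise, 3 of the 10 had groups that did not overlap, against 3.53% of all genes tested. The 10 genes were chosen with earlier results of these data known. These shares, and those in KO mice, are therefore descriptions alone. The median log2 fold change was 0.01 over the 10 iron genes and 0.00 over all genes tested. In bulk liver, fewer cells of a type and less RNA per cell cannot be told apart.

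The same question in KO mice gave the same 3 genes. *Tfrc* ranged from 32.9 to 48.1 CPM (median 43.1) in the 6 KO mice on chow. In the 7 KO mice on HF/HS diet it ranged from 16.7 to 34.8 CPM (median 21.5). Of these, 6 were below every KO mouse on chow, and replicate 5, the highest, overlapped with the chow group. The log2 fold change was -0.80 (SE 0.154, adjusted p = 0.00708; exact permutation p = 0.00233).

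*Fth1* in KO mice ranged from 1362 to 1925 CPM (median 1564) on chow and from 1021 to 1183 CPM (median 1050) on HF/HS diet, a log2 fold change of -0.57 (SE 0.0800, adjusted p = 0.000724). *Ftl1* ranged from 2674 to 4140 CPM (median 3092) on chow and from 1750 to 2388 CPM (median 1973) on HF/HS diet, a log2 fold change of -0.60 (SE 0.108, adjusted p = 0.00418). Neither ferritin chain overlapped between the diets, and both had an exact permutation p of 0.000583. In KO mice 2.73% of 13613 genes tested were lower on HF/HS diet and 3.17% were higher. Groups that did not overlap were found for 2 of the 10 iron genes and for 3.01% of all genes tested. The KO and control comparisons use different mice, so neither shares animals with the other.

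The part of the ferritin reads from the heavy chain had group means of 32.9% to 34.6%, and differences between groups were not tested. *Fth1* was 32.9% ± 1.55 of the reads on both chains in controls on chow and 34.6% ± 1.29 on HF/HS diet (SD, n = 7 each). In KO mice it was 33.4% ± 0.940 (n = 6) on chow and 33.9% ± 2.99 (n = 7) on HF/HS diet. *Ftl1* has many processed copies: 58.4% of the 50-base windows of its transcripts occur in transcripts of other genes, most often the pseudogene Ftl1-ps1, against 1.59% for *Fth1* and 0% for *Tfrc*. Since the reads were 50 bases long, the level of *Ftl1* depends on how such reads were assigned and is less certain than that of the other 2.

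The mRNA of ferroportin, *Slc40a1*, did not pass the threshold between the diets. Any part of the iron-responsive elements in the mRNA levels of these genes was not tested. *Slc40a1* ranged from 66.0 to 95.7 CPM in controls on chow and from 59.5 to 93.2 CPM on HF/HS diet. In KO mice it ranged from 64.6 to 118 CPM on chow and from 60.1 to 115 CPM on HF/HS diet. The groups overlapped almost fully, with log2 fold changes of 0.01 (95% interval -0.23 to 0.25, adjusted p = 0.977) in controls and 0.03 (-0.34 to 0.41, adjusted p = 0.937) in KO mice by edgeR.

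Some blood cell transcripts also differed between the diets in controls. Of all 13525 genes tested in that comparison, 5.6% were lower on HF/HS diet and 4.93% were higher. Of the 7 blood cell genes tested, 3 were called: the red-cell anion exchanger *Slc4a1* (log2 fold change -1.32, adjusted p = 0.0107) and the alpha-globin gene *Hba-a2* (-1.02, adjusted p = 0.0238) fell on HF/HS diet, and the neutrophil gene *S100a8* rose (1.62, adjusted p = 0.00820), all at low levels. The other red-cell genes tested were not called, and the summed levels overlapped between the diets. The summed level of 6 red-cell genes ranged from 181 to 353 CPM (median 228) in controls on chow and from 123 to 247 CPM (median 184) on HF/HS diet. In KO mice it ranged from 172 to 287 CPM (median 234) on chow and from 128 to 403 CPM (median 161) on HF/HS diet, and no blood cell gene passed the threshold there. None of these 6 genes was at 0 in any group. Their part in the fall of *Tfrc*, *Fth1* and *Ftl1* was not tested.

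**Figure D3:**
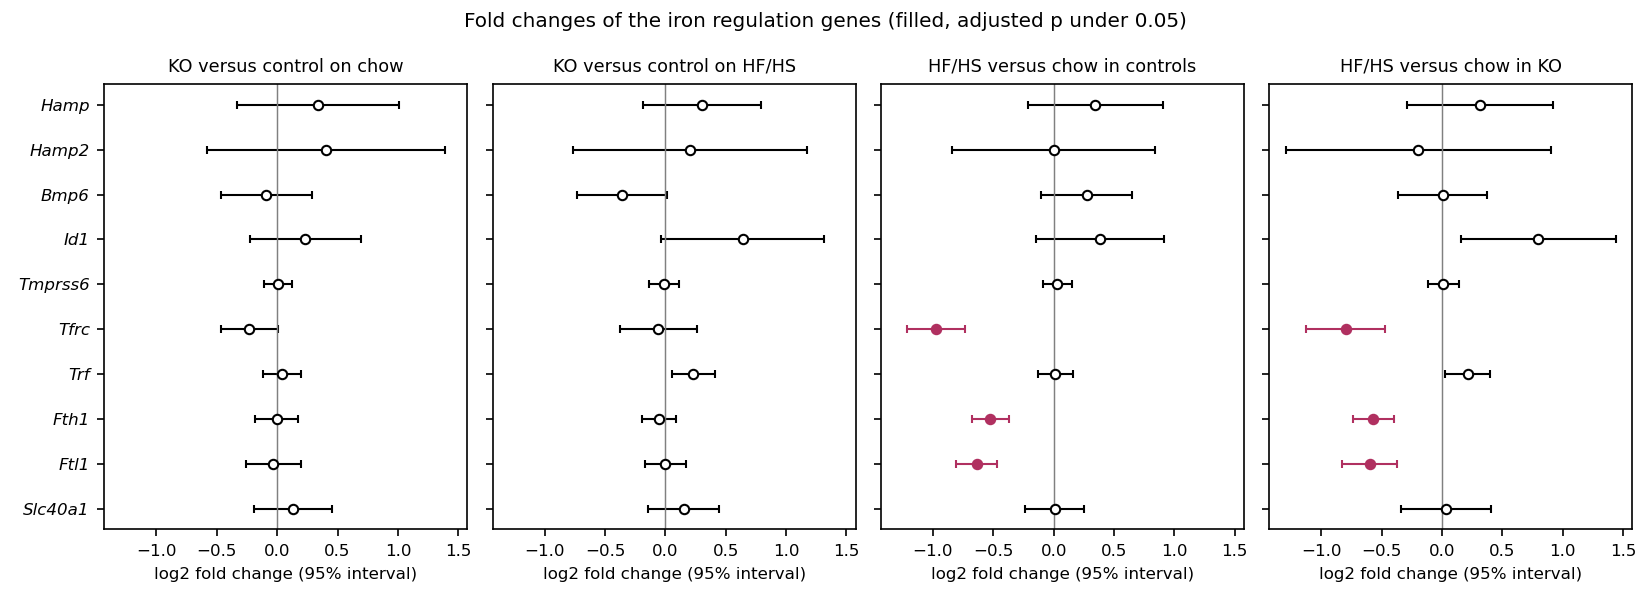
Log2 fold change of each iron gene with its 95% interval in the 4 comparisons, from edgeR; filled points passed an adjusted p of 0.05. Filled points appear in the 2 diet comparisons alone, for *Tfrc*, *Fth1* and *Ftl1*, and the intervals of *Hamp2* are the widest in each comparison.

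Hepcidin was examined next, as the hormone that these pathways converge on. Mice have 2 hepcidin genes side by side on the minus strand of chromosome 7, *Hamp* (chr7:30942368-30944032) and *Hamp2* (chr7:30922372-30924681), and the product of *Hamp2* is not thought to control ferroportin. *Hamp* was the main one: its CPM was 14.1 to 125 times that of *Hamp2* in single mice (median 47.1). *Hamp2* took 2.28% ± 1.32 (SD, n = 27) of the reads on both genes, from 0.792% to 6.61%. Of the 50-base windows of *Hamp*, 16.6% also occur in *Hamp2*, so some reads could not be told apart and the small share of *Hamp2* is uncertain.

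The promoters of both genes are shown because they hold the known BMP and STAT inputs to *Hamp*. Each window is 51 bases from the RefSeq promoter table of GRCm38.p6, 5′ to 3′, with the BMP-responsive element (GGCGCC) and the STAT site (TTCNNNGAA) of *Hamp* and the aligned bases of *Hamp2* in capitals.

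Hamp: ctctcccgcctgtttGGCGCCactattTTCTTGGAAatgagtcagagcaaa

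Hamp2: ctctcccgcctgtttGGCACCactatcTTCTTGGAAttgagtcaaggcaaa

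The *Hamp* window is chr7:30944103-30944153 and the *Hamp2* window chr7:30924252-30924302, both on the minus strand. The *Hamp2* window lies upstream of the RefSeq start but inside the GENCODE gene, which reaches base 30924681. The windows of the 2 genes are 90.2% identical, with 5 substitutions. One falls in the BMP-responsive element (G4A, counted from 1 at the first base of the element), so GGCGCC is not found anywhere in the 300-base promoter window of *Hamp2*. The STAT site is the same in both. Over 32851 promoter windows, searched on both strands, GGCGCC occurred in 11.9% and TTCNNNGAA in 8.3%, and a match, or its absence, is a description of these letters alone. Among the other members with a promoter in the table (*Tfrc*, *Fth1*, *Ftl1* and *Bmp6*), GGCGCC was found in 1 window of *Tfrc* and TTCNNNGAA in none.

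*Hamp* ranged from 119 to 328 CPM (median 245) in controls on chow and from 154 to 605 CPM (median 280) in KO mice on chow. The HF/HS groups ranged from 163 to 450 CPM (median 302) in controls and from 259 to 503 CPM (median 394) in KO mice. The medians were in the order controls on chow, KO mice on chow, controls on HF/HS diet and KO mice on HF/HS diet, but every pair of groups overlapped. The log2 fold change was 0.34 (95% interval -0.34 to 1.01, adjusted p = 0.846) for KO on chow and 0.30 (-0.19 to 0.79, adjusted p = 0.700) for KO on HF/HS diet. For the diet it was 0.35 (-0.21 to 0.90, adjusted p = 0.449) in controls and 0.32 (-0.29 to 0.92, adjusted p = 0.543) in KO mice, so each interval still held increases of 0.79 on the log2 scale.

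*Hamp2* ranged from 1.96 to 17.5 CPM over the 4 groups, and its standard deviation was between 52.8% and 72.2% of the group mean. Its group means were 6.31 and 8.30 CPM in controls and KO mice on chow and 6.33 and 7.27 CPM on HF/HS diet. No comparison came near the threshold, the log2 fold changes lying between -0.19 and 0.40. Single mice weighed on these values. On chow, KO replicate 1 had the highest *Hamp* (605 CPM) and *Hamp2* (15.6 CPM) of its group. Without it the KO effect on chow was 0.03 for *Hamp* and 0.12 for *Hamp2* on the log2 scale. The diet effect on *Hamp* in KO mice was then 0.62 in place of 0.32 (adjusted p = 0.116), and without KO chow replicate 6, the lowest of that group, it was 0.18. The KO effect on *Hamp* on HF/HS diet was 0.19 without control HF/HS replicate 3, and the diet effect in controls was 0.23 without control chow replicate 5. For *Hamp2*, the KO effect on chow was 0.63 without control chow replicate 1. Without KO HF/HS replicate 5, the KO effect on *Hamp2* on HF/HS diet was -0.18 and its diet effect in KO mice -0.59. KO replicate 1 also had the highest *Fth1*, *Ftl1*, *Bmp6* and *Id1* and the lowest *Tfrc* of the KO mice on chow.

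Inflammation is the other known input to hepcidin, through IL6 and STAT3. The summed level of 8 genes of that input (the IL6 receptor, STAT3 and acute-phase genes) ranged from 256 to 2565 CPM in KO mice on chow and from 322 to 2629 CPM in controls on HF/HS diet, while the controls on chow ranged from 283 to 746 CPM and the KO mice on HF/HS diet from 345 to 704 CPM. The 2 highest mice were KO replicate 4 on chow, whose *Hamp* was at 186 CPM, and control replicate 7 on HF/HS diet, which had the highest *Hamp* of its group (450 CPM). Of these 8 genes, the receptor subunit *Il6st* passed the threshold once, higher on HF/HS diet in KO mice (log2 fold change 0.40, adjusted p = 0.0299 by edgeR). In that comparison 3.17% of all genes tested were higher.

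*Bmp6*, the endothelial ligand, was near the lower end of what was measured. It ranged from 1.87 to 3.19 CPM (median 2.65) in controls and from 1.63 to 3.56 CPM (median 2.58) in KO mice on chow. Under HF/HS diet it ranged from 2.03 to 4.41 CPM (median 2.98) in controls and from 2.07 to 3.27 CPM (median 2.46) in KO mice. Below the control median were 6 of the 7 KO mice on HF/HS diet. The log2 fold change between KO and control on HF/HS diet was -0.36 (95% interval -0.73 to 0.01, adjusted p = 0.525), which did not pass the threshold. Sinusoidal endothelial markers, summed over 11 genes, had medians of 316 and 291 CPM in controls and KO mice on chow and 394 and 365 CPM on HF/HS diet. Their part in the level of *Bmp6* was not tested.

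*Id1*, the BMP-SMAD target that follows hepatic BMP signaling, had the largest log2 difference between KO mice and controls among the 10 genes on HF/HS diet, without passing the threshold. On chow that of *Hamp2* and that of *Hamp* were larger. It ranged from 3.68 to 9.72 CPM (median 6.75) in controls on chow and from 6.15 to 12.1 CPM (median 7.56) in KO mice on chow. The HF/HS groups ranged from 4.14 to 14.01 CPM (median 9.12) in controls and from 5.99 to 24.2 CPM (median 13.1) in KO mice. In the HF/HS groups 3 of the 7 KO mice (replicates 1, 3 and 7) were above every control, and the other KO mice were within the range of controls. The log2 fold change was 0.64 (SE 0.314, adjusted p = 0.534; exact permutation p = 0.121) for KO on HF/HS diet. For HF/HS diet in KO mice it was 0.80 (SE 0.298, adjusted p = 0.133; exact permutation p = 0.0594).

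The 6 other BMP-SMAD targets (*Smad6*, *Smad7*, *Atoh8*, *Id2*, *Id3* and *Bambi*) gave no call in any comparison. In both diet comparisons all 6 had positive log2 fold changes, with medians of 0.13 in controls and 0.27 in KO mice, against medians of 0.00 over all genes tested. Sinusoidal endothelial markers had medians of 0.26 and 0.32 and Kupffer cell markers 0.26 and 0.50 in the same comparisons, and their part in the levels of these targets was not tested. *Id2* in KO mice was nearest to the threshold (log2 fold change 0.49, adjusted p = 0.0703).

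*Tmprss6*, the brake on BMP signaling, ranged from 484 to 613 CPM over all 27 mice. Its standard deviation was between 4.61% and 8.08% of the group mean, the smallest of the 10 genes in each group. Its log2 fold changes lay between -0.01 and 0.03 in the 4 comparisons, and every 95% interval was within -0.14 and 0.15.

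*Trf*, which encodes transferrin, had the highest level of the 10 genes. It ranged from 13861 to 17617 CPM (median 15758) in controls on chow and from 14017 to 17775 CPM (median 16683) in KO mice on chow. With HF/HS diet it ranged from 14485 to 19148 CPM (median 15444) in controls and from 17354 to 23618 CPM (median 18042) in KO mice. All 7 KO mice on HF/HS diet were above the median of controls on that diet, and 1 (replicate 2) was above every control. The log2 fold change of KO on HF/HS diet was 0.23 (SE 0.0841). Its exact permutation p was 0.0111 taken alone, but its adjusted p over all genes was 0.448 by edgeR, so it was not called. In KO mice *Trf* was higher on HF/HS diet than the chow median in all 7 mice and higher than every KO mouse on chow in 4 (log2 fold change 0.21, adjusted p = 0.168; exact permutation p = 0.00583 taken alone), and again was not called. The KO effect on *Trf* differed between the diets by 0.20 (SE 0.111, adjusted p = 0.984), which was not past the threshold either. Of the 50-base windows of *Trf*, 59.4% occur in transcripts listed under other genes, nearly all under Gm20425, so reads could also have been left out or assigned there.

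Between the genotypes, 0 of the 10 iron genes were called on chow, where 1 gene of 13571 (0.00737%), *Hgfac* itself, was called. On HF/HS diet 0 of 10 were called, where 2 genes of 13544 (0.0148%) were. Groups that did not overlap were found for none of the 10 on either diet, against 0.125% of all genes on chow and 0.0812% on HF/HS diet. At an unadjusted p under 0.05, edgeR had 812 genes on chow and 1306 on HF/HS diet, among them 0 and 1 of the iron genes, the latter *Trf*. Just above that line were *Bmp6* and *Id1* on HF/HS diet (unadjusted p = 0.0553 and 0.0609 by edgeR) and *Tfrc* on chow (unadjusted p = 0.0556). For *Tfrc* the KO mice on chow had a median of 43.1 against 46.9 CPM, with a log2 fold change of -0.23 (95% interval -0.47 to 0.01, adjusted p = 0.801). DESeq2 and limma voom called none of the 10 on either diet.

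The difference between the diets in the KO effect was fitted as an interaction term with all 27 mice. No gene of 13932 passed the threshold (0%) with edgeR, and 506 had an unadjusted p under 0.05, none of them among the 10. DESeq2 and limma voom called 0 as well. The fall of *Tfrc*, *Fth1* and *Ftl1* on HF/HS diet was thus not shown to differ between genotypes. On the log2 scale the difference was 0.17 (95% interval -0.23 to 0.58) for *Tfrc*, -0.05 (-0.27 to 0.17) for *Fth1* and 0.04 (-0.24 to 0.31) for *Ftl1*. With 1 mouse left out, that of *Tfrc* ran from 0.05 (without KO HF/HS replicate 5) to 0.25 (without control HF/HS replicate 2).

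Per kilobase of exon, *Trf* was highest in controls on chow (4755 ± 361 CPM per kb, SD, n = 7), followed by *Ftl1* (2425 ± 302), *Hamp* (604 ± 180), *Fth1* (458 ± 41.1) and *Tmprss6* (158 ± 7.30). Then came *Hamp2* (10.8 ± 5.87), *Slc40a1* (8.95 ± 1.42), *Tfrc* (7.73 ± 1.19), *Id1* (5.93 ± 1.88) and *Bmp6* (0.676 ± 0.120). *Hamp* and *Fth1* overlapped in that order, as did *Hamp2*, *Slc40a1*, *Tfrc* and *Id1*, whereas the other neighbours did not. The lengths are unions of annotated exons and so understate the level of genes with long rare exons. For *Fth1* the union is 3469 bases, but the transcript shown with its iron-responsive element has 929. For *Slc40a1* these lengths are 9000 and 3370 bases. The order of *Hamp* and *Fth1*, and that of *Hamp2* and *Slc40a1*, thus depends on the length used. With the union lengths, *Hamp* ranged from 631 to 1227 CPM per kb and *Fth1* from 294 to 341 in KO mice on HF/HS diet.

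Variation among mice of a group was used to ask which iron genes moved together. For 8 pairs of members, the log2 CPM was centred on each group mean and compared across the 27 mice (p-values from permutation tests with 100000 resamples, adjusted over the 8 pairs). *Hamp* and *Id1* rose and fell together (Pearson r = 0.57, adjusted permutation p = 0.00748; Spearman rho = 0.60, adjusted permutation p = 0.00424). Without the 2 mice farthest from the median of *Hamp*, r was 0.56. Within chow r was 0.46 (13 mice, adjusted permutation p = 0.295) and within HF/HS diet 0.72 (14 mice, adjusted permutation p = 0.0337), so the relation had the same sign in both diets but passed the threshold in 1.

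*Fth1* and *Ftl1* had the highest correlation of the 8 pairs (r = 0.73, adjusted permutation p = 8e-05, from the smallest p the resamples allow; rho = 0.61, adjusted permutation p = 0.00424). It was 0.63 without the 2 mice farthest from the median of *Fth1*, 0.93 within chow (adjusted permutation p = 0.00016) and 0.39 within HF/HS diet (adjusted permutation p = 0.494). *Hamp* and *Hamp2* correlated over all mice (r = 0.47, adjusted permutation p = 0.0389; rho = 0.48, adjusted permutation p = 0.0312). That relation did not hold throughout: it was 0.80 within chow (adjusted permutation p = 0.00332) but 0.06 within HF/HS diet (adjusted permutation p = 0.830), and 0.36 (adjusted permutation p = 0.196) without the 2 mice farthest from the median of *Hamp*. Whether the diets differ in these correlations was not tested.

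The remaining 5 pairs did not pass the threshold. The r of *Hamp* was 0.33 with *Bmp6* and -0.24 with *Tfrc* (adjusted permutation p = 0.188 and 0.329; rho = 0.32 and -0.23, adjusted permutation p = 0.204 and 0.336), and that of *Bmp6* with *Id1* was 0.23 (adjusted permutation p = 0.329; rho = 0.26, adjusted permutation p = 0.293). *Tfrc* and *Fth1*, which both fell on HF/HS diet, had an r of 0.16 among mice of a group (adjusted permutation p = 0.498; rho = 0.15, adjusted permutation p = 0.520). *Trf* and *Tfrc* had an r of 0.11 (adjusted permutation p = 0.574; rho = 0.13, adjusted permutation p = 0.520). The same libraries supply both values of each pair.

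**Figure D4:**
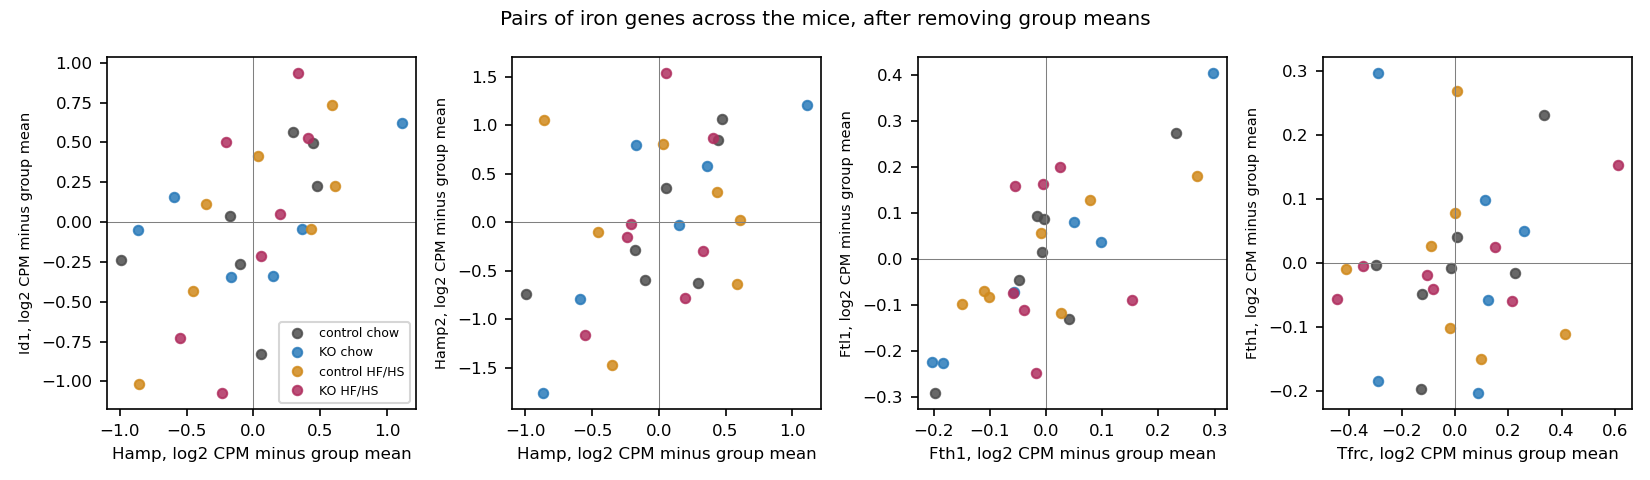
The 4 panels plot pairs of iron genes across the 27 mice, each axis in log2 CPM minus the mean of the mouse's group. *Hamp* rises with *Id1* and *Fth1* with *Ftl1*, *Hamp* and *Hamp2* scatter more widely, and *Tfrc* and *Fth1* show little relation.

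Of 13932 genes, those whose centred log2 CPM was most like that of *Id1* over the 27 mice were *Smad7* (r = 0.85), *Id2* (r = 0.75) and *Alg2* (r = 0.69). The first 2 are themselves BMP-SMAD targets. Those most like *Hamp* were *Ms4a4b* (r = 0.74), *Ikzf3* (r = 0.73) and *Atf4* (r = 0.68), and those most like *Tfrc* were *Acox2* (r = 0.73), *Slc22a15* (r = 0.72) and *Fitm1* (r = 0.69). These are descriptions of the highest values among many genes.

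The wider iron pathway was read from lists, also chosen with earlier results of these data known. Over all genes tested, 5.6% were lower and 4.93% higher on HF/HS diet in controls, and 2.73% and 3.17% in KO mice. Single calls are not read as a result about a list. Of 16 genes that feed the hepcidin pathway (BMP2, receptors, SMADs and co-receptors such as *Hjv*, *Hfe* and *Tfr2*), none was called in controls between the diets and 1 rose in KO mice, the BMP receptor *Bmpr1a* (log2 fold change 0.23, adjusted p = 0.0433). Of 8 genes of iron, heme and hemoglobin uptake, none was called in controls and 1 rose in KO mice. That was *Slc39a14*, the ZIP14 importer of iron not bound to transferrin, at 212 ± 55.3 CPM (SD, n = 6) on chow and 323 ± 60.4 CPM (n = 7) on HF/HS diet (log2 fold change 0.61, adjusted p = 0.0315). Its log2 fold change in controls was 0.68 (adjusted p = 0.0646), where replicate 7 on HF/HS diet, the mouse with the highest acute-phase level, reached 643 CPM. Of 8 tested genes of iron handling and export, among them ceruloplasmin and the iron regulatory proteins *Aco1* and *Ireb2*, none was called in any comparison.

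Of 15 genes of heme metabolism, biliverdin reductase B (*Blvrb*) fell on HF/HS diet in both genotypes, from 97.0 ± 12.3 to 69.9 ± 12.2 CPM in controls (SD, n = 7 each, log2 fold change -0.48, adjusted p = 0.00866) and by 0.42 on the log2 scale in KO mice (adjusted p = 0.00776). *Cpox*, an enzyme of heme synthesis, rose in controls (0.20, adjusted p = 0.0385). Of 12 mitochondrial iron genes, mitoferrin 1 (*Slc25a37*), which imports iron into mitochondria, fell on HF/HS diet in both genotypes (controls -0.35, adjusted p = 0.00195; KO mice -0.31, adjusted p = 0.0433). *Fdx1* rose in controls (0.22, adjusted p = 0.0339) and the cluster scaffold *Iscu* fell in KO mice (-0.23, adjusted p = 0.0470). For comparison, 5.6% of all genes tested were lower and 4.93% higher on HF/HS diet in controls, and 2.73% and 3.17% in KO mice. No gene of any of these lists was called between genotypes.

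Among the cell type lists, 7 of 11 Kupffer cell markers rose on HF/HS diet in KO mice (3.17% of all genes tested did), led by *Cd68* (0.51, adjusted p = 0.00290), *C1qa* (0.49, adjusted p = 0.00335) and *Clec4f* (0.65, adjusted p = 0.00372), and 0 of 11 were called in controls. In each genotype 10 of the 11 had positive log2 fold changes, with medians of 0.26 in controls and 0.50 in KO mice. Their summed level had medians of 286 and 229 CPM in controls and KO mice on chow and 312 and 336 CPM on HF/HS diet. Kupffer cells recycle red-cell iron and express *Slc40a1*, and their part in its level was not tested. The interaction called none of the 11. One of 11 endothelial markers, *Stab2*, rose in KO mice (0.42, adjusted p = 0.0124) and none was called in controls, while 10 of 11 had positive log2 fold changes in each genotype (medians 0.26 in controls and 0.32 in KO mice). Of 8 hepatocyte markers *Ass1* fell in both genotypes (-0.59 and -0.54, adjusted p = 0.000551 and 0.00611 by edgeR) and *Apoa1* rose in controls (0.39, adjusted p = 0.000292). Of 8 tested proliferation genes *Mki67* fell in controls (-0.73, adjusted p = 0.0326), and no immediate early gene was called. Over all genes tested, 5.6% were lower and 4.93% higher in controls, and 2.73% were lower in KO mice.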

How the data were processed

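Liver mRNA of 27 mice was captured, made into stranded libraries and sequenced as 50-base paired reads. Per the paper's methods and the labels, HISAT2 placed the reads on GRCm38, featureCounts 1.6.3 assigned them to genes, and the authors deposited raw counts per gene in 1 table. The annotation release, the strand setting and the handling of reads that match several genes are not given in the sources used here. Rows without a gene name (3886 of 27179, 4.13% to 12.1% of counts) stayed out of library sizes and tests, and 89 symbols on several rows were summed.

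Groups came from the labels. The test was edgeR 4.0.16 under R 4.3.3 (TMM scaling, filterByExpr with a minimum count of 10 and a minimum total of 15, robust quasi-likelihood fit, Benjamini-Hochberg adjustment over all genes tested, threshold 0.05), each comparison on its own 2 groups and the interaction on all mice. CPM are counts scaled by the TMM-normalized library size (prior count 2 for log2 values). Single genes were also tested by exact two-sided permutation. Separate mice are the replicates, and the most similar pair of libraries in any group differed by a chi-square of 17.7 per gene, far over sampling noise. The scripts were tested on simulated data. DESeq2 1.42.0, limma 3.58.1 voom, other filters and scalings, a replicate block and leaving out each mouse were alternatives. The members and the gene lists were chosen with earlier results of these data known. Genes besides the members were named where they were among the 3 smallest p-values of a list and called, or among the 3 most alike to *Hamp*, *Tfrc* or *Id1*. Sequences came from RefSeq and GENCODE tables. *Trf*, *Slc40a1*, *Id1* and *Tmprss6* had no entry in the promoter table.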

Additional observations from a re-analysis of the deposited data

Results flagged for a closer look

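One mouse stood apart from its group in 2 of the 40 sets of mice looked at (10 genes in 4 groups), by the gap to its nearest neighbour as a part of the group's range, and chance alone flags about 1 in 20 such sets. *Trf* in KO HF/HS replicate 2 was at 23618 CPM against 18517 CPM in the next mouse. Without that mouse the log2 fold change of *Trf* between KO and control on HF/HS diet was 0.17 (adjusted p = 0.672 by edgeR) and between the diets in KO mice 0.14 (adjusted p = 0.288). *Fth1* in KO HF/HS replicate 5 was at 1183 CPM against 1082 CPM in the next mouse, still below every KO mouse on chow. Without it the log2 fold change of *Fth1* on HF/HS diet in KO mice was -0.60, still past the threshold.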

How the results depend on the processing

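The calls of *Tfrc*, *Fth1* and *Ftl1* on HF/HS diet held under every alternative run, 20 in controls and 19 in KO mice. *Tfrc* lay between -1.05 and -0.91 in controls and between -0.93 and -0.73 in KO mice on the log2 scale, with the highest adjusted p at 0.000223 and 0.0213. No other member passed the threshold under any alternative, and the count of members called changed in none. The spread among mice of a group was widest for *Hamp2* (52.8% to 72.2% of the mean), and the intervals of *Hamp* still hold increases of 0.79 on the log2 scale. Counts over all genes moved more: DESeq2 called 13 genes between genotypes on chow (edgeR 1), 55 on HF/HS diet (edgeR 2) and 1401 between the diets in KO mice (edgeR 802). With all 27 mice in the fit 1 gene was called between genotypes on HF/HS diet. With 1 mouse left out that count was 2 to 11 (11 without KO HF/HS replicate 5, 5 without control HF/HS replicate 7), and between the diets in KO mice it was 467 (without KO chow replicate 2) to 950.

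A replicate block called 774 genes between the diets in controls (1424 without it). The numbers did not pair the mice: correlations of same-numbered mice ran from -0.252 to 0.368, and in no comparison was every pair over 0.1 or every mouse closest to its own number.

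Signs turned only for members that were not called. On the log2 scale, upper-quartile scaling gave 0.0078 for *Fth1* (KO on chow), 0.012 for *Ftl1* (KO on HF/HS diet), -0.0018 for *Slc40a1* (the diet in controls) and -0.0056 for *Bmp6* (the diet in KO mice). *Hamp2* for the diet in controls was 0.0098 with DESeq2, 0.016 with the replicate block and 0.0014 with all mice. *Slc40a1* for the diet in KO mice was -0.018 with the block, and the interaction of *Hamp* was 0.12 with limma voom. Leaving out 1 mouse turned the sign in 86 of 810 values, none of them called, and the cause was not tested. The ranges of those members were as follows. For KO on chow, *Bmp6* -0.22 to 0.00996, *Fth1* -0.071 to 0.038, *Ftl1* -0.13 to 0.017, *Tmprss6* -0.0199 to 0.035. For KO on HF/HS diet, *Ftl1* -0.037 to 0.038, *Hamp2* -0.18 to 0.41, *Tfrc* -0.18 to 0.0205, *Tmprss6* -0.039 to 0.0204. For the diet in controls, *Hamp2* -0.21 to 0.23, *Slc40a1* -0.037 to 0.071, *Tmprss6* -0.0016 to 0.058, *Trf* -0.033 to 0.045. For the diet in KO mice, *Bmp6* -0.091 to 0.14, *Hamp2* -0.59 to 0.084, *Slc40a1* -0.043 to 0.13, *Tmprss6* -0.015 to 0.045. For the interaction, *Fth1* -0.089 to 0.017, *Ftl1* -0.014 to 0.13, *Hamp* -0.17 to 0.28, *Hamp2* -0.58 to 0.085, *Slc40a1* -0.049 to 0.13, *Tmprss6* -0.045 to 0.015.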
